A study of Mus musculus with 22 samples.

Results

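Homeobox and other positional transcription factors were read across leg muscle and extraocular muscle (EOM, the small muscles around the eyeball) in the mouse strains SJL and Balb. The members are all probe sets whose annotation names a single gene of the Hox, Pitx, Tbx, Meis, Pax, Dlx, Msx, Lhx or Pbx families or of the family of Six2, and the rule reads gene names alone. The rule found 88 probe sets of 70 genes among 12488 probe sets. Total RNA from 8 groups was measured on 22 Affymetrix arrays. Leg muscle came from Balb mice at 10 months (n = 3), Balb mice at 12 months (n = 3), SJL mice at 10 months (n = 3) and SJL mice at 12 months (n = 3). EOM came from Balb mice at 10 months (n = 3), Balb mice at 12 months (n = 2), SJL mice at 10 months (n = 3) and SJL mice at 12 months (n = 2). Sample titles write the older age as 1 year. No agent or engineered allele is named for any group. SJL is an inbred strain known for a dysferlin mutation and a late muscular dystrophy, so SJL and Balb differ by that mutation and by their whole background. The labels do not say which leg muscles were taken, whether animals were pooled, or whether replicates were separate animals, and the p-values therefore measure the spread between these samples.

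Hox genes lie in clusters, and their order along a cluster follows their order of use along the body. Genes early in a cluster are used in the hindbrain and neck, and later ones in the trunk and the limb. Meis and Pbx proteins bind DNA together with Hox proteins. Limb muscle arises from trunk somites through cells that need Pax3, whereas EOM arises from head mesoderm without Pax3. Pitx1 and Tbx4 mark the hindlimb and Tbx5 the forelimb, and Six4 acts with Eya proteins in muscle precursors. Pax6 is a master regulator of the eye that also acts in the glands of the orbit. Most of these factors act in the embryo, and adult tissue can keep part of the pattern. No single-gene probe set was found here for Tbx1, Tbx4, Tbx5, Pax7, Lhx2 or Hoxc10, which were not analysed here.

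The promoters of 4 genes that were lower in EOM are shown because these genes moved together and none of their sequence was used to choose them. Each is the 250 bases upstream of a RefSeq start on GRCm38.p6, read 5′ to 3′ on the gene's strand. Where a gene had several starts, the one farthest upstream was taken, and the others were not searched. Hoxa10 lies on the minus strand at chr6:52240855-52241104. Hoxd8 lies on the plus strand at chr2:74704365-74704614, a window that overlaps the lncRNA Gm38462. Hoxd9 lies on the plus strand at chr2:74697513-74697762, and Six2 on the minus strand at chr17:85688255-85688504, overlapping the lncRNA CJ186046Rik. Capitals mark matches to the searched motifs.
Hoxa10: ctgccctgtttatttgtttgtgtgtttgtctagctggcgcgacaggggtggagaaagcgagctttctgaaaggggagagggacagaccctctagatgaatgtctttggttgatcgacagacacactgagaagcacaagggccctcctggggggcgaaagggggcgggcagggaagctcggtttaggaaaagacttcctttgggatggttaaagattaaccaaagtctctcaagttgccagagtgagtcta
Hoxd8: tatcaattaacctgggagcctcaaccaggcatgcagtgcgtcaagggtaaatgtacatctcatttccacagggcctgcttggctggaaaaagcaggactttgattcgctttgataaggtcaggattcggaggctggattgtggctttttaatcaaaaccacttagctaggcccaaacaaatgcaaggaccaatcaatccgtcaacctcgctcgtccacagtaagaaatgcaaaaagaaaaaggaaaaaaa
Hoxd9: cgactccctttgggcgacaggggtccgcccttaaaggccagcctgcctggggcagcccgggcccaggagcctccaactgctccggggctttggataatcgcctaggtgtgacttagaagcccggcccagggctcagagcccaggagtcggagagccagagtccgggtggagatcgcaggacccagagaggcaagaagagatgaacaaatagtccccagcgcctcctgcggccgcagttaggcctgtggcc
Six2: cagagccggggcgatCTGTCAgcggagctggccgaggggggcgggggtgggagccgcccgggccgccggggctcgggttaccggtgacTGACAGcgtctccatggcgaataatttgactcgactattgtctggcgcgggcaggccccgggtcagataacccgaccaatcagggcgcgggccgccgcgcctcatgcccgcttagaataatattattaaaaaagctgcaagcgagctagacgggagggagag

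Motifs were searched on both strands. They were the homeodomain core TAATTA, the core TGATNNAT that Pbx binds with Hox proteins, TTTATG as bound by posterior Hox proteins, TGACAG as bound by Meis proteins, and the promoter element TATAAA. None was found in the Hoxa10, Hoxd8 or Hoxd9 window, and 2 matches to TGACAG were found in the Six2 window. Among 32851 mouse promoters of the same length, TAATTA was held by 4.84%, TGATNNAT by 7.68%, TTTATG by 10.8%, TGACAG by 15.9% and TATAAA by 12.4%. GC content was 51.6% for Hoxa10, 44.4% for Hoxd8, 65.2% for Hoxd9 and 64.8% for Six2, beside a median of 52.4% over all promoters. The Six2 window held 26 CG pairs, above the upper decile of 25, while Hoxa10 held 7, Hoxd8 6 and Hoxd9 13, with a median of 6 over all promoters. Sequences were found for 47 of the 70 member genes.

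Each value is a linear intensity, and every array had been scaled to a like mean. The 4 replicate 1 arrays at 10 months, 1 in each of the 10-month groups, stood apart by Actb. Their Actb 3 prime to 5 prime ratios were 5.05 to 53.7, beside 0.847 to 1.93 on the other 18 arrays. Many results are therefore given with and without them, and a value given without such a remark includes them. The Gapdh 3 prime to 5 prime ratio did not single out the same 4. On them it ran from 2.17, in Balb leg, to 19.9, in SJL leg. In SJL EOM at 10 months, replicates 2 and 3 read 6.71 and 4.66. Replicates 2 and 3 of that group stay in the results without the 4 arrays. All remaining arrays read 1.54 or less, and some leg arrays at 12 months read far lower. Balb leg replicate 1 read 0.0976 and the SJL leg arrays 0.0534 to 0.0797 at that age. The other Balb leg arrays at 12 months read 1.44 and 0.706, and the EOM arrays 0.733 to 1.41. The bearing of these low ratios on the 12-month differences was not tested. The tissue labels were checked with marker genes on log2(intensity + 16). Of 15 fast skeletal muscle markers tested, 3 were higher and 1 was lower in EOM, with a median log2 difference of 0.47. The higher ones were Eno3 (1.68), Casq1 (1.66) and Atp2a1 (1.62), and the lower one was Pvalb (-1.02). Ckm, muscle creatine kinase, differed by 0.03 (SE 0.31). Of 8 EOM-associated muscle genes tested, 4 were higher and 2 lower, led by the embryonic myosin heavy chain Myh3 at 4.98 (SE 0.19, adjusted p = 1.07e-11 by limma) and the perinatal one Myh8 at 2.51 (SE 0.20, adjusted p = 4.43e-08 by limma). The lower ones were the calcium pump gene Atp2a2 at -1.89 (SE 0.17, adjusted p = 2.46e-07 by limma) and the slow myosin heavy chain Myh7 at -0.90 (SE 0.24, adjusted p = 0.0091 by limma). Myh7 stood at -1.96 in Balb and at 0.15 in SJL, so its mean difference came from Balb.

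Many members were dim. A probe set is called near background in a group when its mean log2 level lies below the mean of those arrays' own 30th percentiles, which were 133.3 to 265.3 in intensity. By this rule 28 of the 88 members (31.8%) were near background in all 8 groups, against 17.8% of all probe sets, and 24 members (27.3%) were near background in none, against 55.3%. The dim members included Meis1 and Meis2, Msx2, Dlx1, Dlx2, Dlx3 and Dlx6, both probe sets of Six3 and of Lhx9, Six6, Pax2, Pax9, Hoxb9, Hoxd11, Hoxd12 and Hoxd13. For these genes a level in adult muscle was not detectable by this rule. Hoxc9 and Hoxa10 were the members near background in all 4 EOM groups and in no leg group, which is 2.27% of the members beside 0.201% of all probe sets. No member showed the opposite pattern.

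The dimmest 30% of probe sets by mean were left out, and 49 members of 40 genes were tested for EOM against leg, averaged over strains and ages. In EOM 7 member probe sets were lower and 4 were higher. The lower ones were Hoxd8 (2 probe sets), Hoxc9, Hoxd9, Hoxa9, Hoxa5 and Six2, and the higher ones were Tbx15, Pax6, Pitx1 and Pbx3. These 11 are 22.4% of the members tested, close to the 23.8% called among all probe sets tested, so as a set the members were not called more often than other genes. The higher calls make up 14.8% of all probe sets and the lower calls 9.05%. The members' median log2 difference was -0.07, beside 0.08 for all probe sets. Without the 4 replicate 1 arrays, 4 members were higher and 12 lower of 50 tested (32%, with 45.1% of all probe sets called). Without the filter, 3 were higher and 11 lower of 88 (15.9%, with 17.8% called). Every EOM array lay below every leg array for 4 of the 49 (0.725% of all probe sets), which were both Hoxd8 probe sets, Hoxc9 and Six2, and every EOM array lay above for 1, a Tbx15 probe set (1.38% of all probe sets). Fewer cells of a type and less RNA per cell cannot be told apart in these whole-muscle samples.

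**Figure D1:**
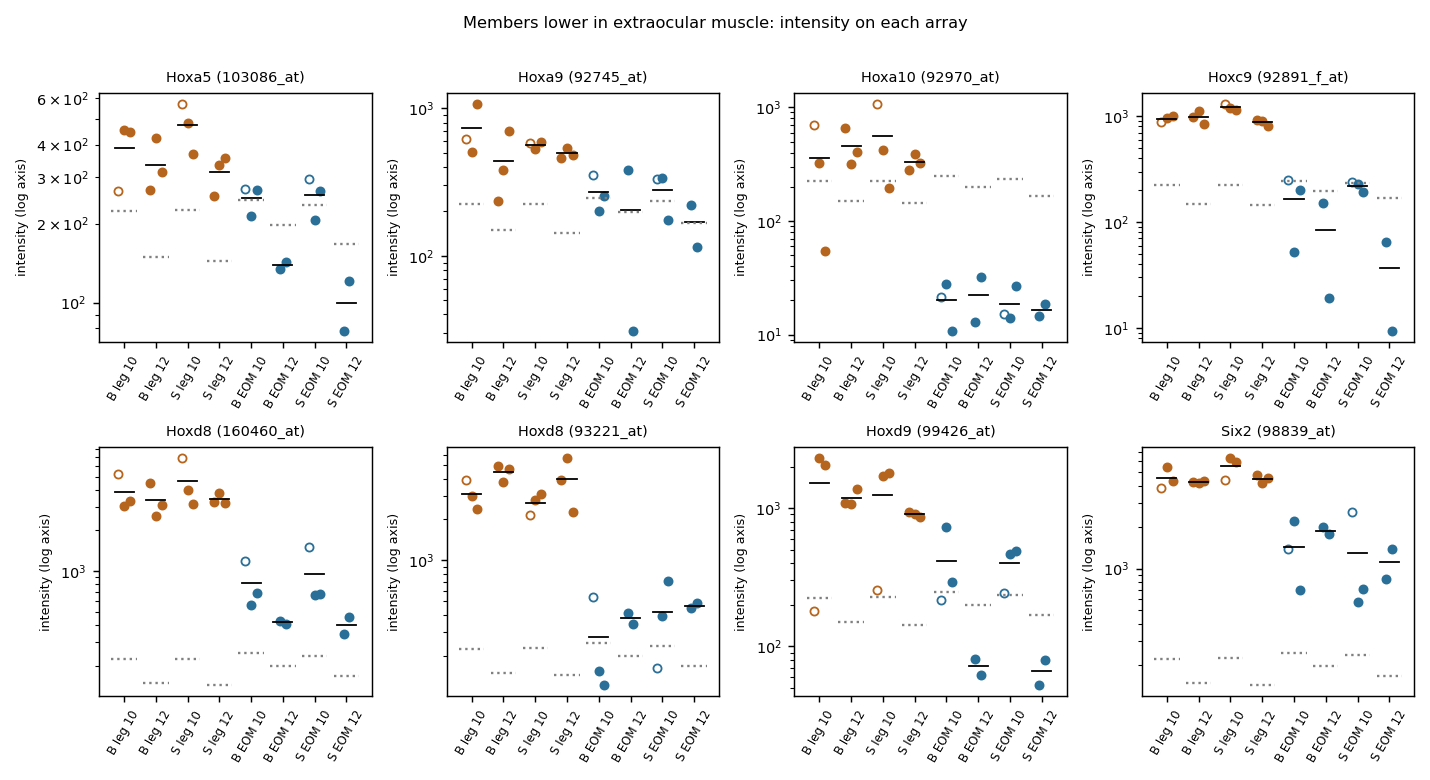
Intensity on a log axis for 7 genes lower in EOM, with Hoxd8 shown by both of its probe sets. Each point is 1 array (brown leg, blue EOM, B for Balb, S for SJL, open for replicate 1 at 10 months), black lines are group means and dotted lines the mean 30th percentile of the group's arrays. Both Hoxd8 probe sets, Hoxc9, Hoxa10 and Six2 show no overlap between muscles, and Hoxa10 and Hoxc9 lie below the dotted line on average in each EOM group.

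Hox members were the main part of the lower group. Of 38 Hox probe sets of 31 genes, 24 were tested, of which 6 were lower in EOM and 0 higher, with a median log2 difference of -0.33. At an unadjusted p under 0.05, Hoxa2 was the one Hox member of those tested above leg, at 0.70 (SE 0.27, adjusted p = 0.0721 by limma). In the fit without a filter, 1 Hoxd1 probe set also lay above leg at that level. It stood at 0.85 (SE 0.32, adjusted p = 0.0726 by limma) and was near background in all groups. Among paralogue groups 1 to 4, the anterior genes, 0 of 7 probe sets tested were called and the median was 0.05. Among groups 5 to 8, 3 of 11 were lower, with a median of -0.31. Among groups 9 to 13, the posterior genes, 3 of 6 were lower, with a median of -1.06. By cluster, the lower calls were 2 of 8 in Hoxa, 0 of 7 in Hoxb, 1 of 5 in Hoxc and 3 of 4 in Hoxd. All these counts are of probe sets, so Hoxd8 counts at both of its probe sets and Hoxa4 at 3. Among all probe sets tested 9.05% were lower. The classes and clusters hold few probe sets, and differences between them were not tested.

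**Figure D2:**
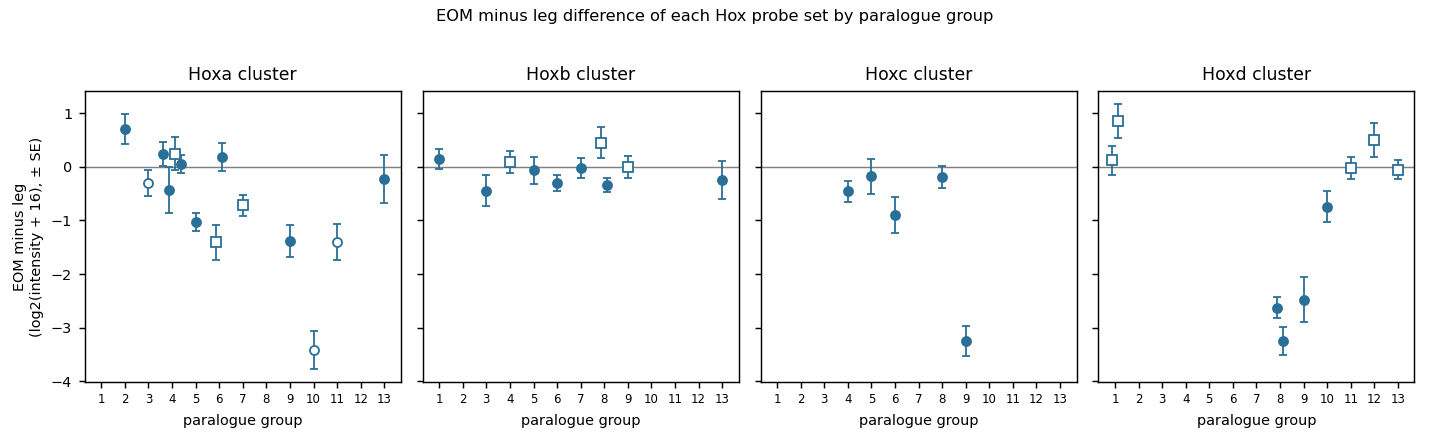
Difference between EOM and leg on the log2(intensity + 16) scale (± SE) for each of the 38 Hox probe sets, by cluster and paralogue group, from the fit to all probe sets without a filter. Filled symbols passed the filter, open ones did not, and squares were near background in all 4 leg groups. Values below -1 belong to Hoxa5, 1 of 2 Hoxa6 probe sets, Hoxa9, Hoxa10, Hoxa11, Hoxc9, Hoxd8 and Hoxd9, and the Hoxb genes lie closer to 0.

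Hoxd8 was read by 2 probe sets. The first ranged over 2139.8, 3441.25 and 5627.9 (lowest, median and highest, n = 12) in leg and over 121.6, 403.7 and 710.5 (n = 10) in EOM. The second gave 2566, 3258.65 and 6837.3 in leg and 344.5, 610.15 and 1516 in EOM. Every EOM array was below every leg array by either reading. The first was near background in 1 EOM group, Balb at 10 months. The log2 differences were -3.24 (SE 0.26, adjusted p = 7.41e-08 by limma) and -2.63 (SE 0.19, adjusted p = 2.24e-08), which correspond to 9.44-fold and 6.17-fold lower levels. Within the 4 combinations of strain and age the first probe set gave -3.69, -2.82, -3.51 and -2.94 (Balb 10, SJL 10, Balb 12 and SJL 12 months, the order used throughout), and the second gave -2.25, -2.29, -2.92 and -3.04.

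Hoxd9, the next gene of that cluster, stood at 179.4, 1084.3 and 2293.6 in leg and at 52.5, 230.7 and 732.7 in EOM. The 2 lowest leg values, 179.4 in Balb and 256.9 in SJL, were replicate 1 arrays at 10 months, and the other leg arrays held 863.8 to 2293.6. The groups overlapped only through those arrays. The log2 difference was -2.47 (SE 0.42, adjusted p = 2.69e-04 by limma), and -2.83 (SE 0.17, adjusted p = 1.11e-09 by limma) without the 4 arrays. It was -1.37, -1.25, -3.77 and -3.50 within strain and age, and the 12-month EOM arrays held 52.5 to 81.0, which is near background in both 12-month EOM groups, so the differences at that age are taken against a background level. On the 10-month arrays alone it was -1.31 and missed the threshold (adjusted p = 0.373 by limma).

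Hoxd10, which lies on the far side of Hoxd9 in the cluster, overlapped between muscles, at 239, 732.95 and 1617.2 in leg and 240.8, 400.6 and 958.5 in EOM. The annotation ties the Hoxd9 and Hoxd10 probe sets to the same source sequence record. Which gene each of them reads was not checked here. Its log2 difference was -0.74 (SE 0.29, adjusted p = 0.0716 by limma), and -0.77 (adjusted p = 0.0322 by limma) without the 4 arrays. Hoxd11, Hoxd12 and Hoxd13, which pattern the far end of the limb, were near background in all groups, as were the 2 probe sets of Hoxd1.

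Hoxc9, a gene of the lower trunk, ranged over 814.7, 975.65 and 1301.4 in leg and over 9.4, 170.45 and 248.7 in EOM. Its EOM level was near background in all 4 EOM groups, so the leg level is given as at least 4.45-fold higher, taken against the EOM arrays' 30th percentile. The fitted log2 difference was -3.25 (SE 0.28, adjusted p = 1.80e-07 by limma), with -2.61, -2.38, -3.70 and -4.31 within strain and age. Its probe set carries the suffix f, which on this type of array marks probes that related genes may share, so a part of its signal could come from another Hox gene. The other Hoxc genes tested, Hoxc4 (-0.45, adjusted p = 0.0945), Hoxc5 (-0.18), Hoxc6 (-0.90, adjusted p = 0.058) and Hoxc8 (-0.19), missed the threshold by limma.

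In the Hoxa cluster, Hoxa9 held 236.5, 535.2 and 1070 in leg and 31, 237.6 and 380.4 in EOM, with overlap through 1 leg array, the Balb 12-month array at 236.5. It was near background in 2 of 4 EOM groups. Its log2 difference was -1.38 (SE 0.31, adjusted p = 2.93e-03 by limma). Hoxa5, a gene of the neck and upper trunk, held 254.1, 361.75 and 571.2 in leg and 78.1, 210.5 and 295.6 in EOM, near background in 2 of 4 EOM groups. It was lower by -1.03 (SE 0.16, adjusted p = 1.67e-04 by limma), and within strain and age by -0.57, -0.84, -1.16 and -1.53. Without the 4 replicate 1 arrays its difference was -1.09 (SE 0.19, adjusted p = 2.09e-04 by limma). On the 10-month arrays alone Hoxa5 was at -0.71 and missed the threshold (adjusted p = 0.166 by limma).

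Hoxa10, a gene of the upper leg and lower trunk, fell below the filter because its EOM values were so low. It read 54.1, 356.6 and 1067.4 in leg and 10.8, 16.85 and 32.1 in EOM, so that the highest EOM array was below the lowest leg array, a Balb replicate 3 array at 10 months. The leg level is given as at least 1.64-fold higher, against the EOM arrays' 30th percentile. In the fit without a filter its log2 difference was -3.41 (SE 0.35, adjusted p = 1.26e-06 by limma), with -2.86, -3.77, -3.61 and -3.41 within strain and age, and -3.07 (adjusted p = 9.42e-07) without the 4 arrays. This value depends on the constant of 16, since the EOM intensities lie near it.

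Hoxa11 also missed the filter and overlapped between muscles, at 92.7, 353.75 and 583.5 in leg and 35.2, 92.25 and 262.7 in EOM, near background in 3 of 4 EOM groups. It was lower by -1.41 (SE 0.34, adjusted p = 0.0065 by limma) in the fit without a filter. In that fit Hoxa7 (-0.72, adjusted p = 0.0113) and 1 of 2 Hoxa6 probe sets (-1.40, adjusted p = 0.0052) also passed by limma, but both were near background in all 8 groups, and the other Hoxa6 probe set stood at 0.18. Hoxa13, the last gene of the cluster, was at -0.22 (SE 0.45), and Hoxb13 at -0.25 (SE 0.36).

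The Hoxb genes showed smaller differences. Hoxb6 was at -0.31 (SE 0.15) and Hoxb7 at -0.02 (SE 0.18), while Hoxb8 was at -0.34 (SE 0.12, adjusted p = 0.0534 by limma). Hoxb5 was at -0.06 (SE 0.25), Hoxb3 at -0.44 (SE 0.29) and Hoxb1 at 0.15 (SE 0.18). None passed the threshold on all arrays, and Hoxb8 passed without the 4 replicate 1 arrays, at -0.36 (adjusted p = 0.0211 by limma). These Hoxb8 values come from its brighter probe set. A second Hoxb8 probe set, near background in all 8 groups, pointed the other way in the fit without a filter, at 0.45 (SE 0.29), and missed the threshold. Hoxb9 was near background in every group.

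Among 26 head and eye probe sets (Pitx3, Six2 to Six6, Pax6, Dlx, Msx and Lhx), 11 were tested, with 1 lower (Six2), 1 higher (Pax6) and a median of -0.06. Six2, a homeobox gene known from kidney progenitors and from limb and head mesenchyme, ranged over 3862.6, 4378 and 6299.4 in leg and over 574.8, 1394.7 and 2576.4 in EOM. No EOM array reached the lowest leg array. The log2 difference was -1.85 (SE 0.23, adjusted p = 1.31e-05 by limma), a 3.60-fold lower level, with -1.79, -2.41, -1.16 and -2.04 within strain and age. Without the 4 replicate 1 arrays it was -2.10 (SE 0.17, adjusted p = 3.28e-08 by limma).

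Six4, a factor of muscle precursors, had 3 probe sets whose muscles overlapped, at -0.20 (SE 0.49), -0.52 (SE 0.22) and -0.25 (SE 0.16), all missing the threshold. The middle one passed without the 4 arrays, at -0.43 (adjusted p = 0.0226 by limma). Pitx3, a gene of lens and midbrain, was at 0.59 (SE 0.38), Lhx6, a gene of the jaw arch, at 0.33 (SE 0.19), and Msx1, a gene of limb and face mesenchyme, at -0.06 (SE 0.18). The direction of the Msx1 value turned on the 12-month arrays alone. Dlx5 and Tbx3 did not pass the filter.

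Pax6 was higher in EOM, with 180, 498.9 and 1567.1 there and 54.8, 143.9 and 501.5 in leg, and the muscles overlapped. It was near background in 2 of 4 leg groups. The log2 difference was 1.39 (SE 0.33, adjusted p = 4.71e-03 by limma). Without the 4 replicate 1 arrays it was 1.44 (SE 0.26, adjusted p = 2.52e-04 by limma). On all arrays the difference was 2.15 in Balb (adjusted p = 0.00431 by limma) and 0.63 in SJL, where it missed the threshold. The difference between the strains was -1.52 (SE 0.66, adjusted p = 0.993 by limma), with an unadjusted limma value under 0.05. Balb EOM arrays held 455.7 to 1567.1 and SJL EOM arrays 180 to 620.8, so SJL EOM overlapped both Balb EOM and leg. In each 10-month group the highest Pax6 value was that of replicate 1. The overlap with Balb EOM came from the SJL replicate 1 array at 10 months, at 620.8. Without the replicate 1 arrays at 10 months, SJL EOM held 180 to 340.1 and Balb EOM 455.7 to 857.3. SJL EOM still overlapped leg, where the highest value was then 316.

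Genes of other orbital tissue moved with Pax6. Of 10 orbital gland and epithelium genes tested, 6 were higher in EOM, with a median log2 difference of 1.05. In Balb 7 were higher (median 1.96) and in SJL 2 were higher (median 0.16). The list's summed intensity over 18 genes was 30494 to 47603 and 36293 to 43264 in Balb EOM at 10 and 12 months, 12317 to 20897 and 12725 to 12790 in SJL EOM, and 3034 to 12961 in leg. The defining genes Bpifa2 and Obp1a, secreted proteins of salivary and lacrimal glands, were above leg by 5.87 and 6.29 in Balb and by 3.66 and 5.47 in SJL. Near background were 5 of the 18 genes in both Balb EOM groups, 8 and 9 in the SJL EOM groups and 9 to 12 in leg. The part of this list in the Pax6 result was not tested. Of 8 retina, lens and cornea genes tested, 2 were higher, Aldh3a1 of the cornea at 1.74 and Cryab, a small heat shock protein also made in muscle, at 0.53. The defining genes Crx of the retina (0.48) and Krt12 of the cornea (0.01) missed the threshold by limma.

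**Figure D3:**
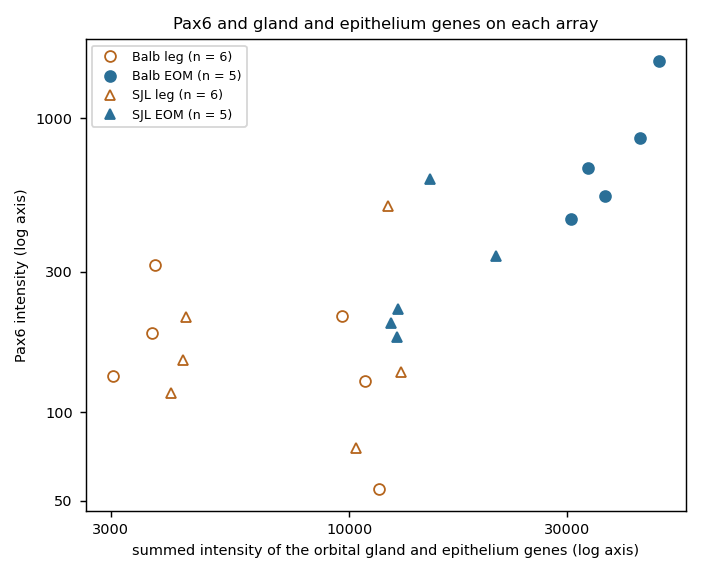
Pax6 intensity against the summed intensity of 18 orbital gland and epithelium genes on each array, both on log axes. Circles are Balb and triangles SJL, open symbols leg and filled symbols EOM. The 5 Balb EOM arrays lie at the upper right, and 3 of the 5 SJL EOM arrays lie within the leg range on both axes.

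Of 9 limb-type and Tbx probe sets, 7 were tested, with 2 higher and 0 lower in EOM and a median of 0.41. Pitx1, a hindlimb factor also used in the jaw arch and pituitary, was higher in EOM, with 676.7, 1612.4 and 2557.6 there and 337.2, 492.85 and 1661.2 in leg. Its log2 difference was 1.25 (SE 0.25, adjusted p = 1.17e-03 by limma), or 2.37-fold. At 12 months the muscles did not overlap, at 337.2 to 490.5 in leg and 676.7 to 2285.9 in EOM. At 10 months they did, at 495.2 to 1661.2 and 1020.3 to 2557.6. Within strain and age the differences were 0.80, 0.76, 2.00 and 1.44, and on the 10-month arrays alone the value was 0.78 (adjusted p = 0.31 by limma).

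Tbx15, a T-box factor of limb, head and trunk mesenchyme and of fast muscle fibres, had 3 probe sets that disagreed. At the brightest EOM held 7950.3, 12271.7 and 15636.3 and leg 3038.5, 4719.85 and 7237.2, without overlap. That difference was 1.29 (SE 0.16, adjusted p = 9.91e-06 by limma), or 2.44-fold, with 1.39, 1.35, 1.41 and 1.00 within strain and age. Without the 4 replicate 1 arrays it was 1.43 (SE 0.11, adjusted p = 2.68e-08 by limma). The second stood at 0.41 (SE 0.47), and at 0.44 (adjusted p = 0.0123 by limma) without the 4 replicate 1 arrays. The third was at -0.06 (SE 0.85). On the 4 replicate 1 arrays at 10 months the third read 11 to 33.2, against 572.8 to 1452.9 on the other arrays. Tbx2, a limb and heart repressor, was at 0.38 (SE 0.24) and -0.01 (SE 0.30), and Tbx6, a factor of early trunk mesoderm, at 0.49 (SE 0.35), none of which passed.

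**Figure D4:**
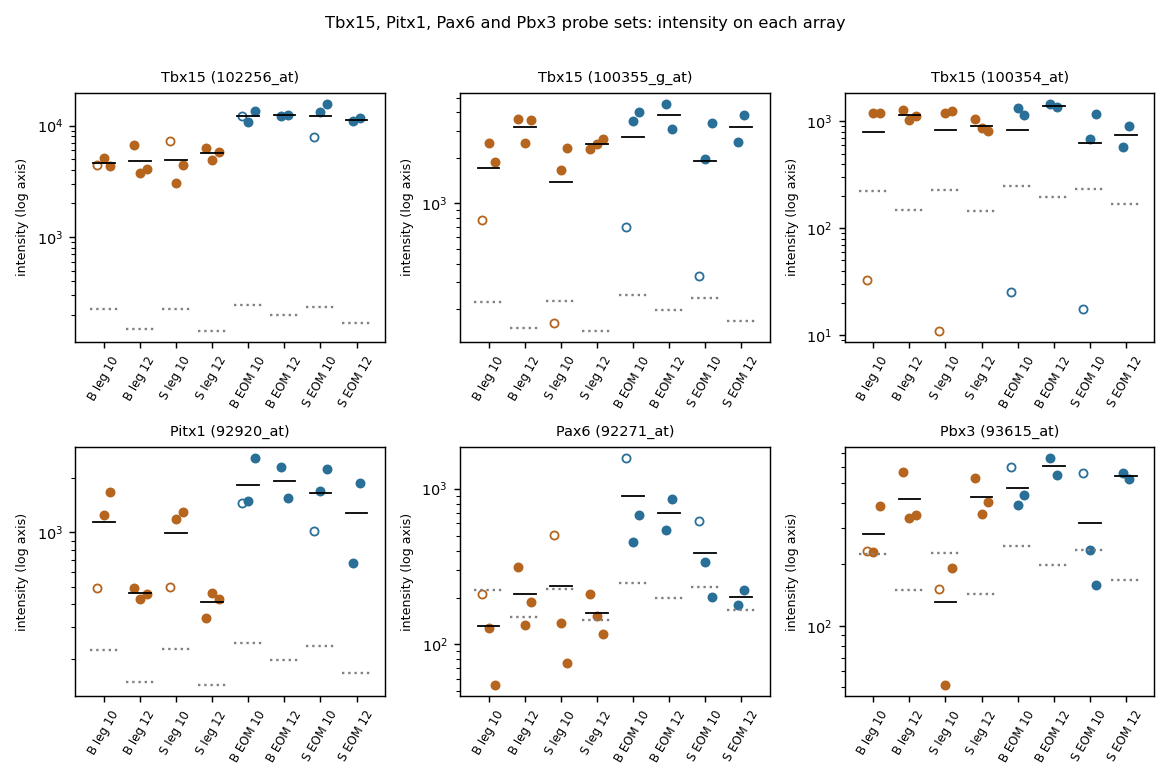
Intensity on a log axis for the 3 Tbx15 probe sets, Pitx1, Pax6 and Pbx3, with symbols as in the plot of lower members. The brightest Tbx15 probe set separates the muscles, and the other 2 drop on the open symbols, the replicate 1 arrays at 10 months.

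Among the Hox cofactors, Pbx3 was higher at 1 of its 3 probe sets, with 158.5, 533.45 and 658.9 in EOM and 51.4, 341.6 and 564.7 in leg. The log2 difference was 0.69 (SE 0.24, adjusted p = 0.0411 by limma), and it missed without the 4 arrays, at 0.54 (adjusted p = 0.0689 by limma). A second Pbx3 probe set stood at 0.31 (SE 0.21), the third did not pass the filter, and Pbx2 at -0.05 (SE 0.45). Pax3, the regulator of limb muscle precursors, differed by 0.10 (SE 0.35), a value whose sign turned with median centring and with quantile normalization. Pax4, a pancreas factor, was at -0.88 (SE 0.41, adjusted p = 0.13 by limma), and -1.03 (adjusted p = 0.0168 by limma) without the 4 arrays.

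The muscle difference was then read in each strain. In Balb 3 members were higher and 7 lower of 49 (20.4%, with 13.6% of all probe sets called), and in SJL 1 was higher and 6 lower (14.3%, with 9.56% called). Hoxd8 (2 probe sets), Hoxc9, Hoxd9, Hoxa5, Six2 and the brightest Tbx15 probe set were called in both strains. Hoxd8 was at -3.60 and -2.58 in Balb and at -2.88 and -2.67 in SJL. Hoxd9 was at -2.57 in Balb and -2.38 in SJL, and Six2 at -1.48 and -2.22. Hoxa9 was at -1.48 (adjusted p = 0.0305) in Balb and -1.28 (adjusted p = 0.0741) in SJL, and Pitx1 at 1.40 (adjusted p = 0.0121) and 1.10 (adjusted p = 0.0569), by limma. In the test of the difference itself 0 of 49 members were called by limma (0.092% of all probe sets), with 1, Pax6, at an unadjusted p under 0.05.

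**Figure D5:**
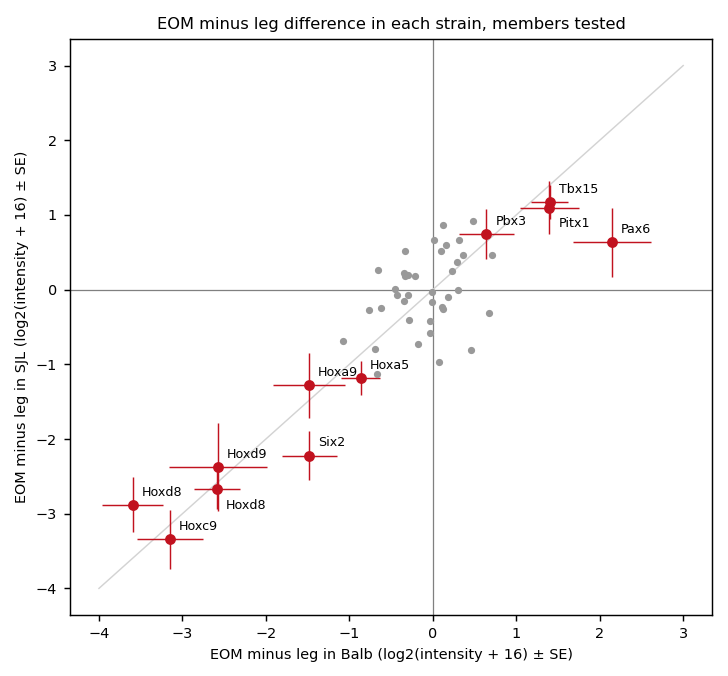
EOM minus leg difference of the 49 members tested in Balb (x axis) and SJL (y axis), on the log2(intensity + 16) scale. Red points with SE bars are the 11 called on average over strains, grey points the other members, and the grey line marks equal differences. Most red points lie near the line, and Pax6 lies to its right, at 2.15 in Balb and 0.63 in SJL.

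Between the strains, 0 of 49 members differed in leg by limma (1.41% of all probe sets called), with 0 at an unadjusted p under 0.05, and 0 of 49 differed in EOM (0.932% called), with 2 at that level. Pax6 in EOM was lower in SJL by -1.41 (SE 0.49, adjusted p = 0.314 by limma). Without the 4 replicate 1 arrays, 4 of 50 members differed in EOM by limma (8.38% of all probe sets called). In that fit the 10-month SJL EOM group holds only replicates 2 and 3, whose Gapdh ratios were 6.71 and 4.66. The first Hoxd8 probe set was then higher in SJL at 1.06 (SE 0.24, adjusted p = 0.0098), against 0.48 on all arrays. The second Hoxd8 probe set was not among the 4, and stood at 0.06 (SE 0.29) on all arrays. Pax6 (-1.36, adjusted p = 0.0386), Six2 (-0.87, adjusted p = 0.0393) and the third Tbx15 probe set (-0.70, adjusted p = 0.0269) were lower in SJL by limma, against -1.41, -0.56 and -0.67 on all arrays.

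Most members read lower at 12 than at 10 months. Of the 49 tested, 27 were lower and 3 higher by limma (61.2%), beside 51.4% of all probe sets called, 32.5% lower and 18.9% higher. The members' median log2 difference was -0.69, and that of all probe sets -0.10. Array medians were 565.8 to 650.6 at 10 months and 423.1 to 561 at 12 months, and the arrays' 30th percentiles were 193.6 to 265.3 and 133.3 to 211.5, so age and array intensity cannot be told apart. With median centring of each array the split was 17 lower and 7 higher, and with quantile normalization 17 lower and 4 higher. The shares of all probe sets called under these normalizations are not given here.

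The lower members with age were spread over the Hoxa, Hoxb, Hoxc and Hoxd clusters and beyond. Hoxb8, at the brighter probe set that passed the filter, was at -1.41 (SE 0.12, adjusted p = 9.59e-08 by limma). Hoxb6 was at -1.42 (SE 0.15), Hoxb7 at -1.52 (SE 0.18) and Hoxb1 at -1.30 (SE 0.18). Pax1, a gene of the vertebral precursors, was at -1.58 (SE 0.21), Lhx1, a gene of the early head and kidney, at -1.70 (SE 0.30), and Msx1 at -1.12 (SE 0.18). Msx1 read 1640 ± 393 (SD, n = 3) in Balb leg at 10 months and 434 ± 78.5 (SD, n = 3) at 12 months. The 3 higher members were Pbx3 at the probe set higher in EOM (0.88, adjusted p = 0.00493), Pbx2 (1.20, adjusted p = 0.0345) and the second Tbx15 probe set (1.14, adjusted p = 0.049) by limma. The second Pbx3 probe set moved the other way, at -0.72 (adjusted p = 0.00891 by limma).

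The EOM to leg difference was also compared between ages. By limma 0 of 49 members differed (0.0115% of all probe sets called), with 4 at an unadjusted p under 0.05. Hoxd9 differed by -2.32 (SE 0.83, adjusted p = 0.693), with its 12-month EOM level near background in both strains. Without the 4 replicate 1 arrays Hoxd9 was the 1 of 50 members called (5.22% of all probe sets), at -1.62 (SE 0.34, adjusted p = 0.0126 by limma).

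Other genes of position and muscle identity were read from lists. Of 15 other craniofacial transcription factors tested, 4 were higher and 1 lower in EOM, with a median of 0.29. Eya2, a partner of Six4 and its relatives, was at 1.57 (SE 0.20), Twist1, a factor of head mesenchyme, at 1.92 (SE 0.29), and Sox10, a neural crest and Schwann cell factor, at 1.09 (SE 0.14). Of 13 other limb and trunk transcription factors tested, 2 were higher and 1 lower, with a median of -0.10. The lower one was En1, a limb and hindbrain homeobox gene, at -2.13 (SE 0.21, adjusted p = 9.27e-07 by limma), with -2.19 in Balb and -2.08 in SJL. Shox2 (0.73, with 0.175 in Balb and 1.29 in SJL) and Meox2 (0.66, with 0.77 in Balb and 0.55 in SJL) were higher.

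Of 9 myogenic regulators tested, 1 was higher and 2 were lower, with a median of -0.21. Myf5, an early determination factor, was higher at 1.71 (SE 0.35, adjusted p = 0.00164 by limma), and Myod1, its relative, lower at -0.56 (SE 0.13, adjusted p = 0.00363 by limma), as was Mef2c at -0.46. Of 19 positional signalling genes tested, 2 were higher and 0 lower, with a median of 0.33, namely the receptor gene Fgfr2 (0.75) and the endothelin gene Edn1 (0.82). Aldh1a3, a retinoic acid synthase, was at 0.77 (adjusted p = 0.0655 by limma).

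Markers of several other cell types were higher in EOM. Calls were 8 higher of 9 peripheral nerve genes (median 1.499), 9 of 12 fibroblast genes (0.54), 5 of 7 adipocyte genes (1.13) and 10 of 13 endothelium and pericyte genes (0.83), with 0 lower in each. They were 1 higher of 4 melanocyte genes (0.08) and 1 higher and 1 lower of 6 cartilage and bone genes (-0.24). Of 5 neuron genes (median 0.35) and 6 lymphocyte and NK cell genes (median 0.38) 0 were called by limma. The part of these cells in the member results was not tested.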

How the data were processed

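RNA was measured on 22 arrays. The authors deposited linear intensities, 1 per probe set and array, made by a standard Affymetrix protocol per the labels. Which software summarized the probes, and with which background correction, is not given in the sources used here. The 2%-trimmed mean was 1500.8 to 1501.1 on every array. There are no detection flags, and the number of arrays limits the precision.

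Values were taken as log2(intensity + 16) without further normalization. From 12488 probe sets, 66 controls and the 30% with the lowest mean were left out, so 8695 were tested. Of all non-control probe sets, 10833 carried 1 symbol. Gene IDs of all 88 members were found in the RefSeq table of GRCm38.p6, and promoters come from RefSeq on that build. The model was limma 3.58.1 (R 4.3.3) with a mean for each of 8 groups over all arrays, eBayes with trend, 14 residual degrees of freedom and 3.63 prior ones. Two-sided tests were used, with Benjamini-Hochberg adjustment over all probe sets tested within each of 8 comparisons and a threshold of 0.05, which is what called, higher and lower mean. Strains and ages were averaged with equal weight. A log2 difference on this scale understates changes of dim genes. For a gene near background in all 4 EOM groups a fold is a lower bound, for which the EOM level was raised to the arrays' 30th percentile. The procedure was tested on simulated data. Python 3.11.15 with matplotlib 3.10.9 made the figures.

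Members and lists were chosen with earlier results of these data known. Values were given for members called, for a fixed set of identity genes, and for the 3 genes of each list ranked first by adjusted p where the text needed them, with further list members and defining genes added after their values were seen. The lists were other craniofacial and other limb and trunk factors, myogenic regulators, positional signalling, and markers of fast muscle, EOM, nerve, gland and epithelium, eye, fibroblasts, cartilage and bone, adipocytes, neurons, melanocytes, lymphocytes, and endothelium. Alternatives were other normalizations, constants and filters, array weights, a replicate block, single ages, arrays left out and other background percentiles.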

Additional observations from a re-analysis of the deposited data

How the results depend on the processing

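The brightest Tbx15 probe set, both Hoxd8 probe sets, Six2, Hoxc9 and Hoxa9 kept their direction and call under every alternative that tested them (35 or 36). Hoxa5, Hoxd9, Pax6 (highest adjusted p = 0.0906 by limma) and Pitx1 each lost the call on the 10-month arrays alone. Pbx3 kept it in 13 of 35. Leaving out single arrays ended no other call of a named gene, and it ended that of Pbx3 in 14 of 22 cases. Hoxc6, Hoxd10 and 1 of 3 Six4 probe sets passed under several alternatives, array weights and the replicate block among them.

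Counts of members called moved with the arrays and the filter. Calls among all probe sets moved as well. For EOM against leg they were 23.8%, and 45.1% without the 4 replicate 1 arrays and 17.8% without a filter. The shares under most other settings are not given here, so the counts that follow are not read as changes particular to the members. For EOM against leg (11), they were 6 on the 10-month arrays, 6 with 50% of probe sets left out, 18 with array weights and 17 with the replicate block. In Balb (10), they were 3 at 10 months and 5 with 50% left out. In SJL (7), they were 2 at 10 months, 12 at 12 months, 4 with 50% left out, 11 with array weights, 12 without a filter, 11 with the replicate block and 11 without the 4 replicate 1 arrays at 10 months. For SJL against Balb in EOM (0), they were 2 with array weights and 4 without those arrays. For age (30), they were 9 with 50% left out and 52 without a filter. For the difference between ages (0), it was 1 without those arrays. Fewer or more members were tested under the other filters, and fewer arrays in single ages. The cause of the other changes was not tested.

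Alternatives chosen after seeing the data left out the 4 arrays and, as well, either dropped the filter or used quantile normalization. Without a filter the counts were 19 for EOM against leg, 13 in SJL, 4 for the strains in EOM, 50 for age and 1 for the difference between ages. With quantile normalization they were 21, 12, 3, 22 and 2. The shares of all probe sets called in these settings are not given here either, so these counts are not read as changes particular to the members.

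With each array left out in turn, the counts ranged over 10 to 13 for EOM against leg, 8 to 11 in Balb, 7 to 9 in SJL and 25 to 29 for age, with 0 throughout for the other comparisons. Differences that missed the threshold and changed sign were Hoxa13 (0.46 at 10 months, and -0.52 to 0.07 with arrays left out), Msx1 (0.15 at 12 months, and -0.109 to 0.037), Pax3 (-0.047 with median centring, -0.10 with quantile normalization, and -0.10 to 0.29), 1 of 3 Six4 probe sets (0.029 at 12 months, and -0.50 to 0.11) and the third Tbx15 probe set (-0.53 to 0.35). Members near background in all 8 groups were 13 by the 20th percentile and 53 by the 50th, instead of 28.

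Same-numbered arrays of an age correlated in their deviations at 0.293 to 0.759 over 12 pairs at 10 months and at -0.0809 to 0.0141 over 8 pairs at 12 months, so same-numbered arrays deviated together at 10 months, where replicate 1 holds the 4 arrays with high Actb ratios, and not at 12 months. Since not every pair did, the block was kept as an alternative, with the counts given above. The block was not run for age, since the numbers lie within an age. Dim members are limited by background, which no flag marks.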

Other observations

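Hoxa4, an anterior Hox gene, had 3 probe sets tested. In EOM against leg they stood at -0.43 (SE 0.43), 0.24 (SE 0.21) and 0.05 (SE 0.17), and none passed. With age they stood at -0.97 (SE 0.43, adjusted p = 0.065), -1.13 (SE 0.21, adjusted p = 3.06e-04) and -1.21 (SE 0.17, adjusted p = 1.45e-05) by limma, in the same order, with the array intensities of the ages apart.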
